A study of Mus musculus with 4 samples.

Results

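Kinesins are motor proteins that use ATP to move along microtubules or to take microtubule ends apart, and the genes examined here are those whose symbol in the deposited table begins with Kif followed by a digit or the letter c. The rule found 44 of the 25630 rows. Of these, 41 are kinesin genes. The other 3 are Kif1bp, which encodes a protein that binds kinesins, the antisense RNA Kif16bos and the pseudogene row Kif4-ps. The kinesin genes were divided by textbook role into 12 mitotic kinesins, 15 transport kinesins and 14 others, which shape microtubules, act in cilia or have no settled place in either class.

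The cells were BEKO, a line established from a thymic lymphoma of the mouse and wild-type in genotype per the labels, grown at low density or at high density, with 2 libraries in each of the 2 groups. The labels name no treatment and give no cell number, medium or time for either density, and all 4 libraries are of the same line. They do not state whether libraries of the same density are separate cultures, so the spread that p-values rest on may be technical. Values are TPM, which divide reads by transcript length and scale every library to the same total, so levels of different genes can be set side by side. The number of reads behind them is unknown.

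Dividing cells build a spindle with mitotic kinesins, which push its poles apart, carry and align chromosomes and later organise the midzone where the cell is cut. Their RNAs are made mainly late in the cell cycle. Transport kinesins carry vesicles, endosomes and mitochondria through the cytoplasm between divisions, and in T cells they share the microtubule network that turns towards the immune synapse.

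High density was compared with low density by limma on log2(TPM + 1) over the 10936 rows whose mean over the libraries reached 1 TPM. A call means an adjusted p under 0.05 after Benjamini-Hochberg adjustment over these rows. A log2 fold change is on the log2(TPM + 1) scale, high minus low, and is given with its standard error. Of all rows tested 6.68% were called, 4.57% higher and 2.11% lower, and their median log2 fold change was 0.12, against which the values below are to be read. Fits that left out 1 high density library called far more rows, and members called in them are to be read against those shares: 29.9% of all rows tested without high density library 1 (2525 higher, 745 lower) and 22.1% without library 2 (1227 higher, 1193 lower). In those fits the lone high density library is assumed to vary like the low density libraries. The pooled standard deviation of log2(TPM + 1) was 0.28 at low but 0.43 at high density. The p-values of those fits therefore rest on the smaller spread. Some other settings called fewer rows than the 6.68% of the main fit. The share was 2.87% with median centring, 3.29% with quantile normalisation, 5.31% in limma without the trend and 0 without the filter on low values. Fits that left out 1 low density library also called fewer rows. Calls lost in these settings are to be read against that. The filter kept 28 of the 44 rows: all 12 mitotic kinesins, 10 of the 15 transport kinesins, 5 of the 14 others and Kif1bp. High density library 2 stood apart from library 1 over the whole table: relative to the low density mean, the median of all rows tested was −0.023 in high density library 1 and 0.27 in library 2. All 10 thymocyte markers were at 63.3 TPM or more in every library. Of 16 markers of other cell types, 6 were at 0 in low density library 1 and 10 or 11 in each of the other libraries. Their summed level was 81.1 TPM in low density library 1 and between 13.8 and 18.3 TPM in the others. The fibroblast marker Col1a1 was at 30.3 TPM and the neuronal marker Snap25 at 20.7 TPM in low density library 1, both below 0.5 TPM elsewhere. The myeloid marker Itgam was at 8.27 and 6.62 TPM at low and 16.1 and 12.1 TPM at high density. Foxj1, listed for ciliated cells, was at 5.96 and 5.94 TPM at low and 1.70 and 2.40 TPM at high density. Neither Itgam nor Foxj1 was called.

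At high density 2 of the 28 members tested were called, a share near the 6.68% of all rows called in either direction. Both were kinesin genes and both were higher, where 4.57% of all rows were called higher. They were Kif21b, 3.55-fold, and Kifc3, 3.53-fold in mean TPM. Of the 12 mitotic kinesins 0 were called by limma, with 1 at an unadjusted p under 0.05, and they had a median log2 fold change of 0.20. Of the 10 transport kinesins tested 1 was called, and their median was 0.42. The classes differed in how the high density libraries sat when read apart. The mitotic kinesins stood at a median of 0.44 above the low density mean in high density library 1 and 0.17 in library 2, and the transport kinesins at 0.15 and 0.76. That difference between the classes has no replicate check and was not tested. In RNA of whole cultures, a different share of cells in mitosis and a different amount of an RNA in each cell cannot be told apart.

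**Figure D1:**
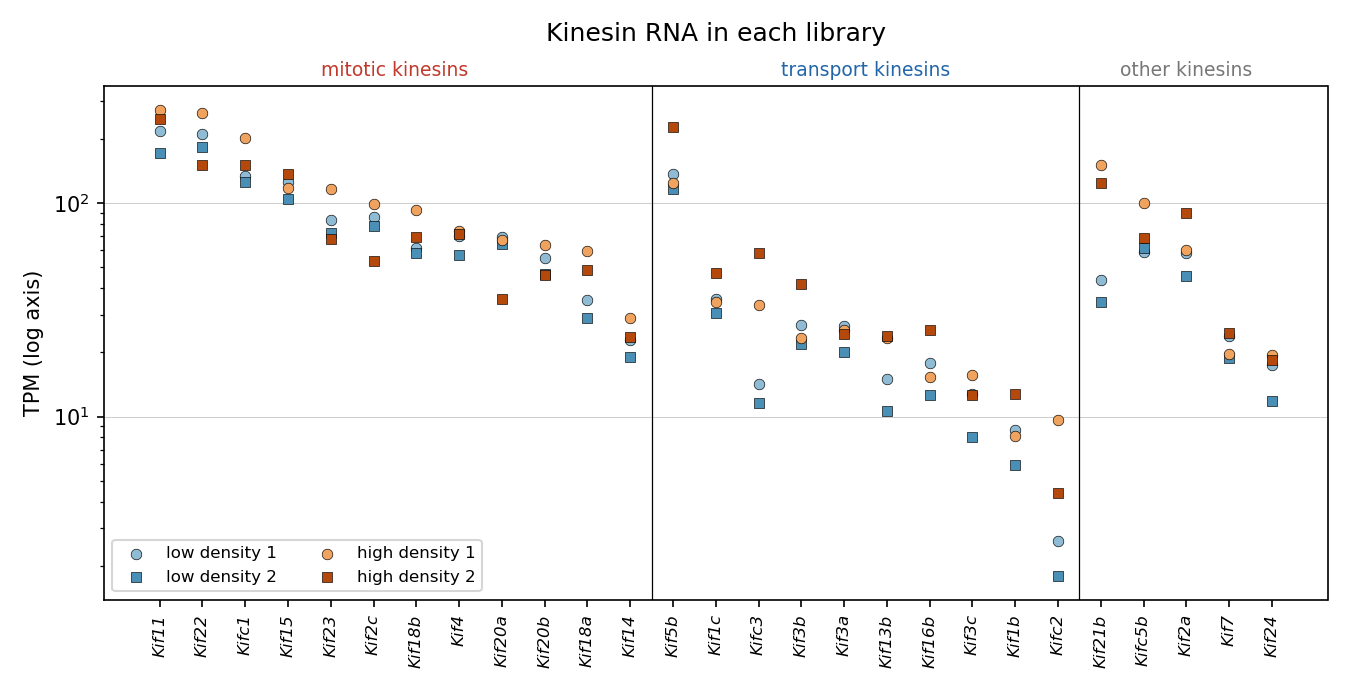
TPM on a log axis of the 27 kinesin genes tested, by role and in falling order of mean, with 1 point for each library (circles replicate 1, squares replicate 2, blue low and orange high density). Kif21b and Kifc3 stand clear of their low density values, while Kif20a, Kif2c, Kif22 and Kif23 are lowest in high density library 2.

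The mitotic kinesins were the more abundant class. Their median level was 76.5 and 68.5 TPM in low density libraries 1 and 2 and 95.5 and 68.5 TPM in high density libraries 1 and 2. The same median was 16.4, 12.1, 23.3 and 24.9 TPM for the transport kinesins tested. Summed over the class, mitotic kinesin RNA exceeded transport kinesin RNA 3.90-fold and 4.19-fold in the low density libraries, 4.66-fold in high density library 1 and 2.31-fold in high density library 2. Over the 4 libraries the highest mean levels were those of Kif11 (228 TPM), Kif22 (202), Kifc1 (153), Kif5b (151) and Kif15 (121). In this order of the 27 genes each range over the 4 libraries overlapped the range of the next gene. These ranges mix the densities, and differences between neighbours were not tested. Read library by library, Kif22 lay above Kifc1 in every library, though in high density library 2 only at 150.9 against 150.3 TPM. Kif11 lay between the 90.2 and the 95.1 percentile of tested rows in every library.

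Most mitotic kinesin genes with a promoter entry share a feature that played no part in choosing them. Genes of late cell cycle RNAs are known for the cell cycle homology region, TTTGAA, a site near the transcript start, and often for CCAAT boxes before it. RefSeq promoters (GRCm38.p6, 250 bases before to 50 after each start, of another build than the mm9 of the deposited table) were at hand for 11 of the 12 mitotic kinesins. TTTGAA, on either strand, was found in 10 of the 11, in 0 of 6 transport kinesins tested with an entry and in 14.1% of the genes of rows tested that have an entry. It was in 17.9% of all 32851 promoters in the table. CCAAT, on either strand, was in 7 of the 11 mitotic and 3 of the 6 transport kinesins, in 43.5% of the genes of rows tested with an entry and in 37.4% of all promoters. No TTTGAA overlapped a CCAAT in these promoters. The mitotic kinesin with an entry and no TTTGAA in the window was Kif18a. Entries were lacking for Kif20a, Kif5b, Kif13b, Kifc2, Kifc3, Kif21b and Kif1bp. A match of letters is a description, and binding was not measured. The stretches shown run from 80 bases before the start through the first 30 transcribed bases, 5′ to 3′ on the gene's strand. Capitals mark TTTGAA or its reverse complement TTCAAA and CCAAT or its reverse complement ATTGG. The first 6 are among the 8 mitotic kinesins in which TTTGAA lies within 20 bases of the start. That limit was set after the positions were seen, and the share of all promoters that meet it was not computed. Kif3a and Kif1c are transport kinesins that show the absence of TTTGAA.
Kif11, chr19:37376302-37376411, plus strand: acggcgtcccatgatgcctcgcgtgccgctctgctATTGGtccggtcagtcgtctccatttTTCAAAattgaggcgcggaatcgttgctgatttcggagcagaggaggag
Kif15, chr9:122951001-122951110, plus strand: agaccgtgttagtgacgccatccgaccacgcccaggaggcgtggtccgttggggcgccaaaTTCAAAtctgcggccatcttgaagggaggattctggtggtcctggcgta
Kif22, chr7:127042391-127042500, minus strand: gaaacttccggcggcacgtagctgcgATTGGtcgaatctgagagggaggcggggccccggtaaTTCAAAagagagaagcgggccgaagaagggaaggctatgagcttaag
Kif23, chr9:61946770-61946879, minus strand: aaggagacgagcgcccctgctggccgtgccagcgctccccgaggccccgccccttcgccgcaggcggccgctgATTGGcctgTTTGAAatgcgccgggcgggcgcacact
Kif18b, chr11:102925095-102925204, minus strand: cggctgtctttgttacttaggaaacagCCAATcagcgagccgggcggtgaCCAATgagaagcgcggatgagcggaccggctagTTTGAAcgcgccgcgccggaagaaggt
Kifc1, chr17:33890604-33890713, minus strand: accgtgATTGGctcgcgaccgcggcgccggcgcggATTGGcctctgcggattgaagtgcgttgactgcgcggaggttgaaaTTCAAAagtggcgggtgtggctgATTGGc
Kif3a, chr11:53567289-53567398, plus strand: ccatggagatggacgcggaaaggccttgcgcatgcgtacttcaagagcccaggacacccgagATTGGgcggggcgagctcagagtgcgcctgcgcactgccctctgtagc
Kif1c, chr11:70700468-70700577, plus strand: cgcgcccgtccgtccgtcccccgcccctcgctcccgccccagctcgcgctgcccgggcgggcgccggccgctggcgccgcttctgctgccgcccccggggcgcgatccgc
The positions that follow describe the promoters and were not tested. The first base of the match lay 19 bases before the start in Kif11 and Kif15 and 17 before it in Kif22, and it lay 2, 3 and 1 bases after it in Kif23, Kif18b and Kifc1. Kif20b, with matches 7 and 13 bases after the start, and Kif4, with a match 19 bases after it, met the same limit and are not printed. In Kif14 and Kif2c the only match was farther away, 228 and 103 bases before the start. Of other genes of mitosis with an entry, the same motif was in 8 of 13 partners of mitotic kinesins and 12 of 18 regulators of G2 and M phase, and in 1 of 16 genes of dynein and dynactin.

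Spindle assembly genes come first. Kif11, the motor that slides spindle microtubules apart to separate the poles, was at 217 and 171 TPM in low density libraries 1 and 2 and at 274 and 249 TPM in high density libraries 1 and 2. Both high density values lay above both low density values, but the log2 fold change of 0.43 ± 0.23 did not pass the test (limma adjusted p = 0.288). Kif15, which can hold the poles apart when Kif11 fails, was at 125 and 105 TPM at low and 118 and 137 TPM at high density. Its groups overlapped (log2 fold change 0.14 ± 0.24, limma adjusted p = 0.759). Kifc1, a motor that walks to the minus end and bundles microtubules at the poles, was at 134 and 126 TPM at low and 202 and 150 TPM at high density. Its groups did not overlap (0.42 ± 0.24, limma adjusted p = 0.319). Kifc1 shares 45.8% of its 50-base stretches with Kifc5b, a near copy placed among the other kinesins, so that reads could be split between them. Kifc5b was at 59.2 and 61.5 TPM at low and 100.2 and 68.7 TPM at high density, also without overlap (limma adjusted p = 0.324). Groups did not overlap in 54.7% of all rows tested, with high density above in 34.7%. Without high density library 2, Kifc1 and Kifc5b were called higher (limma adjusted p = 0.0358 and 0.0248). Each other kinesin tested shared at most 2.68% of its 50-base stretches with any gene.

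Chromosome movement genes differed between the high density libraries. Kif18a, which shortens kinetochore microtubules and aligns chromosomes, had the largest log2 fold change of the 12 (0.74 ± 0.26, limma adjusted p = 0.115). It was at 35.1 and 28.9 TPM at low and 59.4 and 48.7 TPM at high density, 1.69-fold in mean TPM and without overlap, and it was called without high density library 2 (limma adjusted p = 0.0192). Its relative Kif18b, which acts at the ends of astral microtubules, was at 61.6 and 58.3 TPM at low and 92.4 and 69.4 TPM at high density. Here, too, the groups did not overlap (limma adjusted p = 0.355). Kif22, a chromokinesin that pushes chromosome arms away from the poles, was at 210 and 182 TPM at low and 264 and 151 TPM at high density. High density library 1 was the highest of the 4 and high density library 2 the lowest (log2 fold change 0.03 ± 0.28, limma adjusted p = 0.966). Kif2c, which takes apart microtubules at centromeres and so corrects wrong attachments, was at 86.1 and 78.4 TPM at low and 98.6 and 53.8 TPM at high density, again the highest and the lowest (−0.17 ± 0.30, limma adjusted p = 0.771).

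Midzone and cytokinesis genes held the lowest fold change. Kif20a, which brings the chromosomal passenger complex to the midzone, was at 69.7 and 64.5 TPM at low and 66.9 and 35.7 TPM at high density. High density library 1 lay between the low density values and only library 2 lay below them (log2 fold change −0.45 ± 0.30, limma adjusted p = 0.41). In the annotation at hand 29.3% of the exon bases of Kif20a overlap exons of Cdc23 on the other strand. Cdc23 was at 67.6, 63.3, 54.8 and 79.2 TPM in the same order of libraries. Kif23, the motor subunit of centralspindlin, was at 83.1 and 72.4 TPM at low and 116 and 67.6 TPM at high density, with overlap (0.19 ± 0.29, limma adjusted p = 0.732). The ratio of Kif20a to Kif23 was 0.839 and 0.891 in the low density libraries and 0.575 and 0.528 in the high density libraries. It was 1 of several ratios of gene pairs computed, and none was tested. The ratio of Kif11 to Kif15 also kept the groups apart (1.73 and 1.63 at low, 2.33 and 1.82 at high density), and the other gene pairs overlapped. Kif4, a chromokinesin that also shapes the midzone, was at 70.0 and 57.0 TPM at low and 74.1 and 71.4 TPM at high density. Kif14, which acts with citron kinase when the cell is cut, was at 22.8 and 19.1 TPM at low and 29.0 and 23.5 TPM at high density. Neither gene overlapped between the groups and neither was called (limma adjusted p = 0.669 and 0.54). Kif20b, another motor of cytokinesis, was at 55.3 and 46.6 TPM at low and 63.4 and 46.2 TPM at high density, with overlap.

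Counted over the class, 6 of 12 mitotic kinesins had both high density libraries above both low density libraries and 0 had both below, against 34.7% and 20% of all rows tested. Without high density library 1, Kif20a and Kif2c were called lower (limma adjusted p = 0.0106 and 0.0399), 2 of 12 in a fit that called 29.9% of all rows. Without high density library 2, Kif18a, Kif18b and Kifc1 were called higher (limma adjusted p = 0.0192, 0.0444 and 0.0358), 3 of 12 in a fit that called 22.1% of all rows. Which high density library was left out set the direction of these calls. Under median centring of the libraries, the log2 fold change of the class had a median of 0.009 and that of all rows tested a median of −0.063.

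**Figure D2:**
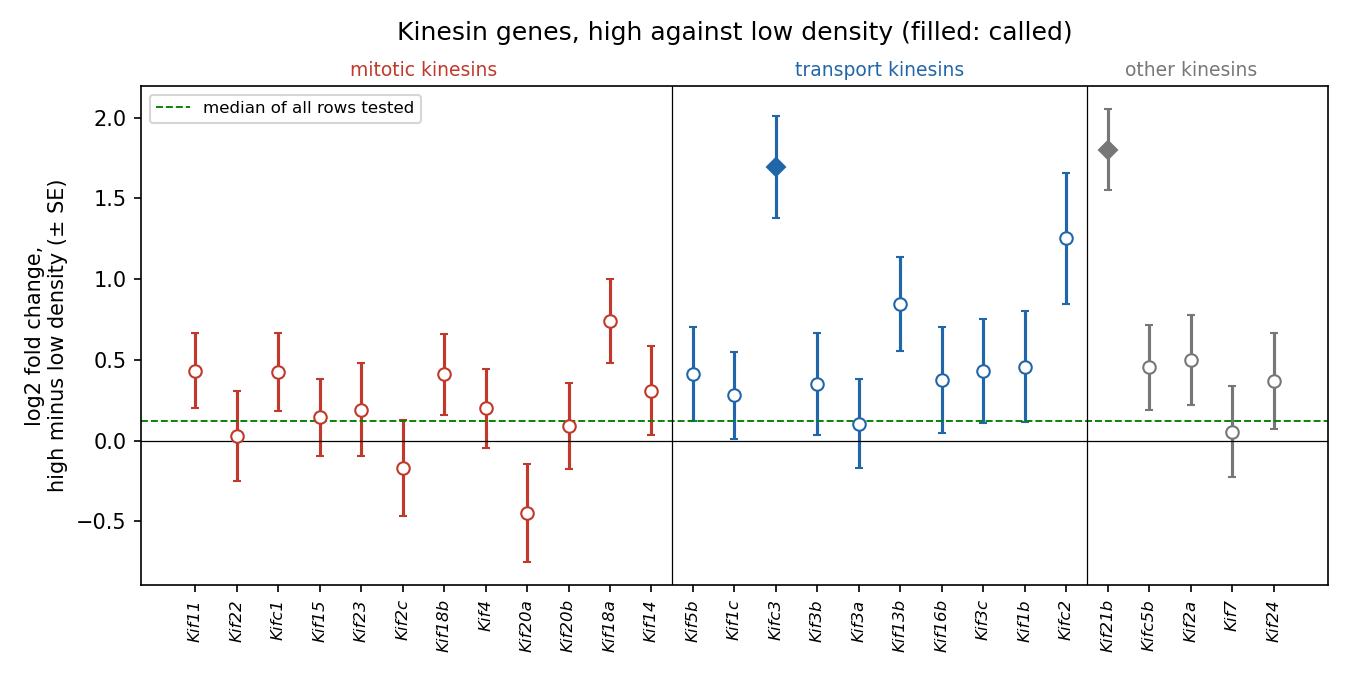
Log2 fold change on the log2(TPM + 1) scale, high minus low density, with bars of 1 standard error from limma, for the 27 kinesin genes tested. Filled diamonds are the called genes Kifc3 and Kif21b; the dashed line is the median of all rows tested (0.12), and Kif20a has the lowest value at −0.45.

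The gap between the high density libraries was found in nearly every mitotic kinesin. High density library 2 lay below library 1 in 11 of 12, where 28.8% of all rows tested did so, and the exception was Kif15. The ratio of library 2 to library 1 was 0.533 for Kif20a, 0.546 for Kif2c, 0.572 for Kif22 and 0.581 for Kif23, and between 0.729 and 1.16 for the other 8. A ratio under 0.6 was found in 4 of 12 mitotic kinesins, against 5.93% of all rows tested. That limit was chosen after the values were seen, and with 1 library on each side the gap has no replicate check. Low density library 2 lay below low density library 1 in all 12 as well, but 69.7% of all rows tested did so, and the median difference there was −0.22 against −0.42 between the high density libraries.

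**Figure D3:**
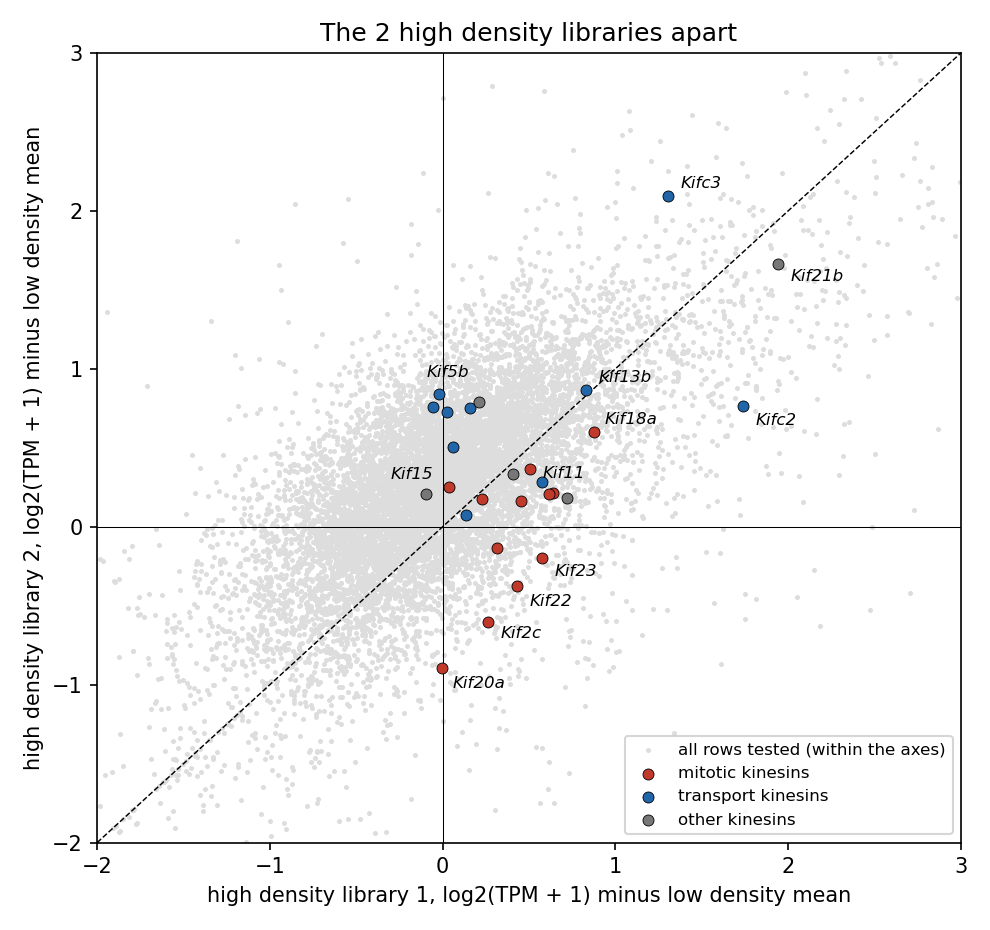
Each point is a row, with its log2(TPM + 1) minus the mean of the low density libraries in high density library 1 (x axis) and library 2 (y axis); grey points are all rows tested, coloured points kinesin genes, and the dashed line marks equal values. Mitotic kinesins (red) lie mostly under the line, down to Kif20a. Above it lie 7 of the 10 transport kinesins (blue), and 7751 of the 10936 rows tested.

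Among transport kinesins, Kifc3 was the only called gene of the 10 tested. Kifc3, a motor that walks to the minus end and is known from the Golgi and cell junctions, was at 14.3 and 11.6 TPM at low and 33.2 and 58.2 TPM at high density. Both high density values were more than double both low density values (3.53-fold in mean TPM, log2 fold change 1.70 ± 0.32, limma adjusted p = 0.00958). With low density library 1 left out the limma adjusted p was 0.0545 and with library 2 left out it was 0.168, so the gene was then not called, at ratios of 3.93 and 3.21. It was not called without the filter on low values either (limma adjusted p = 0.412), where 0 rows of the whole table were called. Of its exon bases, 27.5% overlap exons of other genes on the other strand. Libraries are strand-specific per the labels, but the sources used here do not say whether the counting used strand. Kifc2, another motor that walks to the minus end and is best known from neurons, was weakly expressed at 2.63 and 1.79 TPM at low and 9.61 and 4.40 TPM at high density. Its groups did not overlap (log2 fold change 1.25 ± 0.41, limma adjusted p = 0.0882), and without high density library 2 it was called (limma adjusted p = 0.00477), with the ratio at 4.36 in place of 3.18.

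Conventional kinesin made up the largest share of transport kinesin RNA. Kif5b, the ubiquitous heavy chain that carries mitochondria and lysosomes, held between 39.7% and 48.5% of the summed transport kinesin TPM in every library. It was at 136 and 117 TPM at low and 124 and 227 TPM at high density, so that high density library 1 lay between the low density values and library 2 far above them (0.41 ± 0.29, limma adjusted p = 0.433). Without high density library 1 it was called (limma adjusted p = 0.0122, 1.79-fold). Its neuronal relatives Kif5a and Kif5c lay below the filter, Kif5c at 0.951 and 0.642 TPM at low and 0.365 and 0.324 TPM at high density. Kif5a was at 1.64 TPM in low density library 1 and between 0.0447 and 0.259 TPM in the other libraries, and Kif1a, which carries synaptic vesicle precursors, was at 0.993 TPM there and at most 0.0099 TPM elsewhere. The markers Snap25 and Col1a1 were high in that same library, and their part in these values was not tested.

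Heterotrimeric kinesin pairs Kif3a with Kif3b or with Kif3c. Kif3a was at 26.5 and 20.1 TPM at low and 25.4 and 24.3 TPM at high density, and Kif3b at 26.9 and 21.9 TPM at low and 23.4 and 41.7 TPM at high density. The ratio of Kif3a to Kif3b was 0.984 and 0.914 at low density, 1.09 in high density library 1 and 0.583 in library 2. Kif3c was at 12.8 and 8.04 TPM at low and 15.6 and 12.6 TPM at high density. These 3 genes overlapped between the groups and were not called (limma adjusted p = 0.856, 0.543 and 0.458), though Kif3b was called without high density library 1 (limma adjusted p = 0.0305), with the ratio of mean TPM at 1.71. Of the exon bases of Kif3c, 40.7% overlap exons on the other strand. Kifap3, listed here among light chains and cargo adaptors, lay below the filter. It was at 0.452 TPM in low density library 1 and at 0 in every other library.

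Vesicle and endosome carriers followed Kif5b or held level between the high density libraries. Kif13b, a carrier first described as a partner of a membrane scaffold in T cells, was at 15.0 and 10.7 TPM at low and 23.3 and 23.8 TPM at high density. Its groups did not overlap (1.84-fold, log2 fold change 0.85 ± 0.29, limma adjusted p = 0.106), and leaving out either high density library made it a called gene (limma adjusted p = 0.0336 for library 1 left out, 0.0478 for library 2). Kif16b, which moves early endosomes, was at 17.8 and 12.7 TPM at low and 15.3 and 25.5 TPM at high density. Kif1b, a carrier of mitochondria and vesicles, was at 8.65 and 5.97 TPM at low and 8.15 and 12.8 TPM at high density. Kif1c, which moves Golgi-derived vesicles, was at 35.6 and 30.5 TPM at low and 34.4 and 47.1 TPM at high density. In each of these last 3 genes high density library 1 lay between the low density values and library 2 above both (limma adjusted p = 0.526, 0.458 and 0.578).

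Over the class, 3 of the 10 transport kinesins tested (Kif13b, Kifc2 and Kifc3) had groups that did not overlap, all with high density above, against 34.7% of all rows tested. All 10 log2 fold changes were above 0, from 0.10 for Kif3a to 1.70 for Kifc3, where 6527 of the 10936 rows tested were above 0. With each library centred on its median, however, Kif3a was at −0.082 and the class median at 0.23. The class median of 0.42 was 0.76 without high density library 1 and 0.15 without library 2. With low density library 1 left out it was 0.65, and with library 2 of that density left out 0.22. High density library 2 lay above library 1 in 7 of the 10, near the share over the whole table, where it did so in 7751 of the 10936 rows tested. In 11 of 12 mitotic kinesins it lay below, against 28.8% of all rows tested.

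Outside both classes Kif21b had the largest fold change of all 28 members tested. Kif21b, which limits microtubule growth in neurons and T cells, was at 43.5 and 34.4 TPM at low and 151 and 125 TPM at high density. The groups did not overlap, and both high density libraries lay at more than 3-fold the low density mean (3.89-fold and 3.20-fold). The log2 fold change was 1.80 ± 0.25 (limma adjusted p = 0.00211). The call held in each fit that left out 1 library, and with median centring (limma adjusted p = 0.0436), but not without the filter on low values (limma adjusted p = 0.271), where 0 rows of the whole table were called. It has no exon overlap with another gene in the annotation at hand and shares no 50-base stretch with another gene's transcripts.

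The other 4 genes of this class were not called. Kif2a, a microtubule depolymerase of spindle poles and of neurons, was at 58.6 and 45.7 TPM at low and 60.0 and 90.1 TPM at high density, without overlap (log2 fold change 0.50 ± 0.28, limma adjusted p = 0.304). It was called without high density library 1 (limma adjusted p = 0.0234, ratio of mean TPM 1.73). Kif24, which acts at centrioles, was at 17.5 and 11.8 TPM at low and 19.4 and 18.4 TPM at high density, also without overlap (limma adjusted p = 0.495). Kif7, a regulator of Hedgehog signalling at the tip of the cilium, was at 23.7 and 18.9 TPM at low and 19.7 and 24.6 TPM at high density, with overlap (limma adjusted p = 0.931). Exons of Kif7 and Kif2a overlap those of other genes on the other strand over 20.3% and 19.2% of their bases. Kif1bp, which matches the rule but is no kinesin, was at 39.0 and 32.2 TPM at low and 36.4 and 53.1 TPM at high density (adjusted p from limma = 0.552).

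The remaining 16 members lay below a mean of 1 TPM and were not tested. Of these, 6 were listed at 0 in every library: Kif12, Kif19a, Kif26a, Kif2b, Kif6 and Kif4-ps. Another 5, Kif13a, Kif17, Kif21a, Kif26b and Kif27, stayed under 0.5 TPM in every library. Kif9, a kinesin of motile cilia, reached 1.30 TPM in high density library 1 and was at most 0.567 TPM in the others. The antisense RNA Kif16bos was at 2.19 TPM in low density library 2 and at most 0.166 TPM in the others.

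Genes that work with mitotic kinesins were read in the same libraries. In a list of 16 partners, 0 were called by limma (3 at an unadjusted p under 0.05) with a median log2 fold change of 0.23, and high density library 2 lay below library 1 in 16 of 16, against 28.8% of all rows tested. Cenpe, a kinetochore kinesin whose symbol the rule does not match, was at 75.3 and 57.2 TPM at low and 86.2 and 67.3 TPM at high density (adjusted p from limma = 0.67). The partners of smallest p were Nusap1, Ect2, Anln and Cit, with log2 fold changes of 0.60, 0.56, 0.84 and 0.60 and limma adjusted p from 0.168 to 0.233. Nusap1 bundles spindle microtubules, Ect2 activates the small GTPase of the cleavage furrow, Anln scaffolds that furrow and Cit is citron kinase. Anln was at 62.4 and 47.8 TPM at low and 151 and 64.4 TPM at high density, and without high density library 2 it was called at 2.75-fold (limma adjusted p = 0.00259). Nusap1 was called there as well (limma adjusted p = 0.0206). Tpx2, the spindle factor that activates Aurka, was at 172 and 148 TPM at low and 199 and 103 TPM at high density. Plk1, a kinase of mitotic entry and exit, was at 162 and 150 TPM at low and 173 and 94.0 TPM at high density. Both followed Kif20a and Kif2c in being lowest in high density library 2, and both were picked after their values were seen.

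Regulators of G2 and M phase gave 0 calls among 20 by limma (0 at an unadjusted p under 0.05) and a median of −0.027. High density library 2 lay below library 1 in 19 of 20, beside the same 28.8% of all rows tested. The genes of smallest p were Bub1, a checkpoint kinase, Mki67, the gene of a proliferation antigen, the phosphatase Cdc25c and the cyclin Ccnb1. Their log2 fold changes were 0.46, 0.42, 0.43 and −0.47 (limma adjusted p from 0.263 to 0.348). Ccnb1 was at 142 and 136 TPM at low and 133 and 75.4 TPM at high density and was called lower without high density library 1 (limma adjusted p = 0.0089). Mki67 was at 238 and 188 TPM at low and 293 and 276 TPM at high density, so that it lay above the low density values in both high density libraries. In 14 activators and repressors of these genes 0 were called by limma (4 at an unadjusted p under 0.05), and high density library 2 lay below library 1 in 1, where 28.8% of all rows tested did so. Rbl2, a pocket protein of the repressor complex DREAM, was at 24.1 and 20.4 TPM at low and 39.8 and 41.3 TPM at high density (log2 fold change 0.84 ± 0.26, limma adjusted p = 0.0765). Its E2F partner E2f4 was at 245 and 221 TPM at low and 307 and 427 TPM at high density (adjusted p from limma = 0.139). Tfdp1, the dimer partner of E2F proteins, was at 319 and 295 TPM at low and 175 and 204 TPM at high density (log2 fold change −0.70 ± 0.23, limma adjusted p = 0.0877). Rbl2 and Tfdp1 were called without either high density library, and E2f4 and E2f8, an E2F repressor, without library 1 only. Those fits called 29.9% of all rows (library 1 left out) and 22.1% (library 2 left out).

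**Figure D4:**
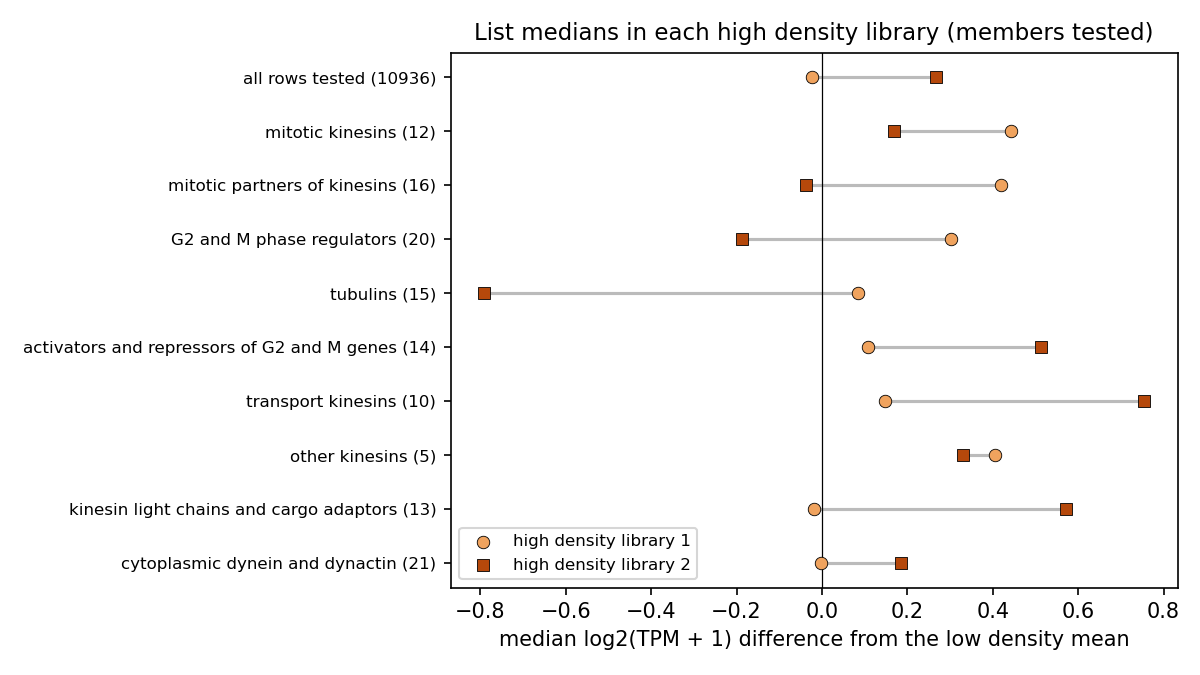
Median log2(TPM + 1) difference from the low density mean for each list, in high density library 1 (circles) and library 2 (squares), over the members tested (numbers in brackets). Mitotic kinesins, their partners, G2 and M regulators and tubulins are lower in library 2 than in library 1. So are the other kinesins, at 0.33 in library 2 and 0.41 in library 1. The lists of transport kinesins, adaptors, activators and repressors, dynein and all rows are higher.

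Of 13 light chains and cargo adaptors tested, 2 were called, both higher, beside 4.57% of all rows called higher. Mapk8ip3, which links kinesin to vesicles and to JNK, was at 54.6 and 49.8 TPM at low and 128 and 95.2 TPM at high density (log2 fold change 1.07 ± 0.25, limma adjusted p = 0.0284). Fez2, a relative of the kinesin adaptor Fez1, was at 3.10 and 2.82 TPM at low and 9.05 and 8.49 TPM at high density (log2 fold change 1.30 ± 0.33, limma adjusted p = 0.038). Neither overlapped between the groups. Both calls were lost without either low density library, with median centring, with quantile normalisation and without the filter on low values. Those settings called fewer rows of the whole table, and the last called 0. Mapk8ip3 also lost its call in limma without the trend (adjusted p = 0.0616). Klc4, a light chain, was at 33.2 and 30.1 TPM at low and 54.3 and 52.1 TPM at high density (adjusted p from limma = 0.104), and its relative Klc2 at 30.5 and 24.5 TPM at low and 30.5 and 51.9 TPM at high density (adjusted p from limma = 0.324). Klc4 was called without either high density library and Klc2 without library 1, in fits that called 22.1% of all rows or more. Kif1bp stands in this list as well.

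Dynein, the motor that moves the other way, gave 0 calls among 21 tested genes of dynein and dynactin by limma (0 at an unadjusted p under 0.05), with a median log2 fold change of 0.10. The smallest p values were those of Actr10, Pafah1b1, Dynll1 and Dynlt1b, with log2 fold changes of 0.52, 0.54, −0.39 and −0.30 (limma adjusted p from 0.227 to 0.459). Without high density library 1, Actr10, Pafah1b1 and Dynll1 were called, in a fit that called 29.9% of all rows.

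Tubulins, the tracks themselves, moved both ways. Of 15 tested, 1 was called higher and 2 lower, beside 4.57% of all rows called higher and 2.11% called lower. Tuba4a, an alpha-tubulin, was at 240 and 236 TPM at low and 122 and 110 TPM at high density (log2 fold change −1.03 ± 0.23, limma adjusted p = 0.0201). Tubb2a, a beta-tubulin, was at 62.3 and 72.8 TPM at low and 36.4 and 22.8 TPM at high density (log2 fold change −1.20 ± 0.28, limma adjusted p = 0.0294). Tuba8 was at 5.09 and 7.23 TPM at low and 18.3 and 14.1 TPM at high density (log2 fold change 1.27 ± 0.32, limma adjusted p = 0.0377). The groups of these 3 genes did not overlap. Their calls were lost without either low density library, with median centring and without the filter on low values. Those settings called fewer rows of the whole table, and the last called 0. Tubb2a and Tuba8 also lost theirs with quantile normalisation, and Tuba4a and Tubb2a in limma without the trend. Tube1, which encodes epsilon-tubulin of centrioles, had a log2 fold change of 0.87 ± 0.27 (limma adjusted p = 0.0747). It lay at 1.63-fold the low density mean in high density library 1 and at 2.13-fold in library 2. The most abundant tubulin, Tubb5, was at 2113 and 1789 TPM at low and 2629 and 1040 TPM at high density, so that high density library 1 was the highest and library 2 the lowest, as for Kif22 and Kif2c. It was picked after its values were seen.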

How the data were processed

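RNA was measured in 4 libraries of BEKO cells, 2 per density. The authors deposited 1 table of TPM values with 1 column per library, which the samples' descriptions name. Build mm9 and DESeq2 1.2.10 are listed, with no role, per the submitters' processing notes. The aligner, counter and annotation were not given in the sources used here. TPM keeps no depth, so no counting interval is given.

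Rows whose mean reached 1 TPM were tested with limma 3.58.1 in R 4.3.3 on log2(TPM + 1), a pseudocount of 1, with a group term and a variance trend, two-sided. Its 2 residual degrees of freedom were raised by 9.53 through moderation. An exact permutation test of 1 gene cannot go below p = 0.333 and was not run. The script was tested on simulated data.

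The members, roles, lists and motif were chosen with earlier results of these data known. Each kinesin with a mean of at least 1 TPM is named, with up to 4 genes of smallest p from each other list and Cenpe. Tpx2, Plk1, Tubb5, Kifap3 and Cdc23 fall outside this rule and were named after their values were seen. Lists are described by counts and medians beside all rows, without a set test. Overlap of exons and shared 50-base stretches come from GENCODE M21 (of another build), used only for how genes relate. Alternatives were 2 pseudocounts, 2 filters, 2 scalings, limma without the trend, a replicate block and leaving out each library.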

Additional observations from a re-analysis of the deposited data

How the results depend on the processing

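Over 12 alternatives the count of 2 called kinesins, the 0 called mitotic kinesins and the 1 called transport kinesin held with another pseudocount (0.1 or 5), a mean of at least 5 TPM, median centring, quantile normalisation, limma without the trend and the replicate block. Without the filter on low values 0 kinesins and 0 transport kinesins were called by limma (5 and 3 at an unadjusted p under 0.05), and 0 of all rows. Leaving out 1 library gave 1 to 8 called kinesins, 0 to 3 called mitotic kinesins and 0 to 4 called transport kinesins, and between 233 calls over all rows (low density library 2 left out) and 3270 (high density library 1 left out). The group left with a lone library is then assumed to vary like the other. Over the fits that left out 1 library, the median log2 fold change was 0.074 to 0.44 for mitotic kinesins and 0.15 to 0.76 for transport kinesins. With median centring it was 0.0090 for mitotic and 0.23 for transport kinesins, and with quantile normalisation 0.070 and 0.22. Of 335 values of the 28 single members, 319 kept their side of the threshold, and 19 values of members not called changed sign. With the replicate block the count of called kinesins was 2, of mitotic kinesins 0 and of transport kinesins 1, and all rows gave 937 calls in place of 731. The labels do not say that replicate numbers mark a shared culture or day, and deviations of same-numbered libraries correlated at 0.042 across rows, so the number was not taken to pair the libraries.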
